A study of Mus musculus with 69 samples.

Results

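Immune complexes of IgG act on cells through Fc gamma receptors, and 6 transcripts of this system were followed through the kidneys of lupus-prone mice: the activating receptors Fcgr1, Fcgr3 and Fcgr4, the inhibitory receptor Fcgr2b, the signalling chain Fcer1g and the kinase Syk. They were taken by symbol from the deposited count tables, and all 6 were among the 24523 symbols with counts. The study sequenced poly(A) RNA of perfused whole kidneys from female NZB/W F1 mice, a hybrid strain that develops lupus nephritis spontaneously. The groups were 30 young mice of 12 weeks, 27 nephritic mice of 30 to 45 weeks whose proteinuria had passed 300 mg/dl, and 8 mice of 36 to 50 weeks in remission. The remission mice had first passed a proteinuria of 300 mg/dl. They then received cyclophosphamide once (50 mg/kg) with 6 doses of CTLA4Ig (200 µg) and anti-CD40L (250 µg) over 2 weeks. They kept proteinuria at or below 30 mg/dl until harvest after 8 weeks. Young and nephritic kidneys were harvested at 6 time points, Zeitgeber time (ZT, hours after lights on) 0, 4, 8, 12, 16 and 20, and remission kidneys at ZT0 and ZT12. Young and nephritic mice differed in age as well as in disease, so age and nephritis cannot be told apart in these levels. Remission mice were also older than young mice. Their age range was later than that of nephritic mice already at treatment, and they were harvested later still. Age is thus mixed with disease and treatment in the remission comparisons too.

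Totals per library were 25257530 to 35744843 counts in young, 26596500 to 48075977 in nephritic and 13311278 to 21849912 in remission kidneys. The study's sample table lists 6 young and 5 nephritic mice, all at ZT0 or ZT12, as Set 1 and the others as Set 2. All remission libraries and a second library of each of 4 mice (2 young and 2 nephritic) carry the same s numbering, and remission cannot be told apart from that numbering except through those 4 repeats. The libraries of 2 mice stood apart from their labels. Remission mouse 8 is labelled ZT12, but its Arntl level of 27.1 CPM (counts scaled to a common library total) lay with the 4 ZT0 remission mice (23.1 to 28.8 CPM) and not with the other 3 ZT12 mice (3.19 to 4.90 CPM). The repeat library of nephritic mouse 21 (ZT12) lay nearest to another mouse, nephritic mouse 10 (ZT4), with its own original at rank 14, and its Syk level was 9.18 CPM against 41.7 CPM in the original. The main comparisons of levels of the 6 members are given with and without these mice. List counts, correlations, and levels and differences at single time points are given only with them. Mice are numbered within their group in accession order.

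As background, the activating receptors bind the Fc part of IgG and signal through a shared dimer of Fcer1g, whose tail carries an immunoreceptor tyrosine-based activation motif (ITAM). When receptors are clustered by immune complexes, the paired tyrosines of the ITAM are phosphorylated and recruit Syk, which starts phagocytosis, oxidative burst and cytokine release. Fcgr2b binds the same complexes but carries an inhibitory motif (ITIM) in its own tail, which recruits the phosphatase SHIP1 (Inpp5d) and damps the signal, and it is also known from B cells and some endothelial cells. Fcgr1 binds monomeric IgG with high affinity, Fcgr3 binds mainly complexed IgG, and Fcgr4 is the mouse receptor preferred by complexed IgG2a and IgG2b. In lupus nephritis, IgG complexes lodge in the glomerulus, and the balance of activating and inhibitory receptors on myeloid cells has been studied as a step between deposition and injury.

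The opposite signalling roles are written in short coding stretches, which are shown to make the activating and inhibitory sides visible. They were read from the GENCODE coding sequences of the C57BL/6 reference (GRCm38), not from NZB/W mice, with the tyrosine codons in capitals. The Fcer1g stretch covers codons 65 to 79 (tyrosines at 65 and 76) of 86 codons. A search of the 6 coding sequences for a pair of tyrosines spaced as in an ITAM, each followed by leucine or isoleucine at the third residue after it, found 1 match, this one. The Fcgr2b stretch covers codons 313 to 326, with the ITIM tyrosine at 319, of 340 codons. The letters of an ITIM are looser than those of an ITAM: the same search found 1 match in Fcgr2b but also 3 in Fcgr1, 1 in Fcgr4 and 1 in Fcer1g, so a match alone does not mark the inhibitory side.
Fcer1g ITAM: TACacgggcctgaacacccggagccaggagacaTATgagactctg
Fcgr2b ITIM: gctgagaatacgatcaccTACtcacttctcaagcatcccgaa

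Of the 6 genes, 4 lie together on chromosome 1 of GRCm38. Fcgr2b is at chr1:170958617-170976547 on the minus strand, Fcgr4 at chr1:171018920-171029761 on the plus strand, Fcgr3 at chr1:171051174-171064935 on the minus strand and Fcer1g at chr1:171229572-171234365 on the minus strand. The gap from Fcgr2b to Fcgr4 is 42.4 kb and from Fcgr4 to Fcgr3 it is 21.4 kb. Fcgr1 is on another chromosome (chr3:96282909-96293969, minus strand), as is Syk (chr13:52583173-52648792, plus strand). Fcgr2b and Fcgr3 are close paralogs: 9.58% of the 50-base windows of Fcgr3 transcripts also occur in Fcgr2b transcripts, and none of its 150-base windows does. Of the Fcgr2b windows, 6.95% of those of 50 bases also occur in other genes (146 genes in all). For windows of 150 bases it was 1.92% (4 other genes). Only exact matches were counted, whereas the study allowed 2 mismatches, so how far reads were split between genes was not tested. Fcgr2b is also overlapped by an antisense gene, Gm38204, and whether the counting used strand is not given in the sources used here.

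The promoters of the 3 activating receptors and of Fcgr2b are shown because the levels of these receptors are what the comparisons turn on. Each runs from 250 bases before to 50 bases after the RefSeq start on GRCm38.p6, and is printed in the gene's direction; for Fcgr3, 1 of 2 listed starts is shown. Capitals mark matches, on either strand, to GAGGAA (the core letters bound by the myeloid factor PU.1), TTCNNNGAA (a STAT element) and GAAA, any 2 bases, GAAA (an interferon-stimulated response element), and no matches overlapped. GAGGAA occurs once in each of the 3 activating receptor promoters, as TTCCTC in the printed strand, and not in that of Fcgr2b or Fcer1g, while 28.3% of 32851 promoters of the same length hold it. Fcgr1 also holds TTCNNNGAA (8.3% of all promoters) and Fcgr4 holds the interferon-stimulated response element (3.44%). Of the 2 listed Syk promoters, 1 holds GAGGAA. A match is a match of letters only.
Fcgr1, chr3:96293920-96294219, minus strand: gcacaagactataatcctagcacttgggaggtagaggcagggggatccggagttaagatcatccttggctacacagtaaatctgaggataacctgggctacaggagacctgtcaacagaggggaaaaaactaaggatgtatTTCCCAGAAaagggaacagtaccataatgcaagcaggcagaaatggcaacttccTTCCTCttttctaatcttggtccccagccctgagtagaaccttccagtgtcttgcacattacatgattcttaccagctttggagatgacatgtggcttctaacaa
Fcgr3, chr1:171059345-171059644, minus strand: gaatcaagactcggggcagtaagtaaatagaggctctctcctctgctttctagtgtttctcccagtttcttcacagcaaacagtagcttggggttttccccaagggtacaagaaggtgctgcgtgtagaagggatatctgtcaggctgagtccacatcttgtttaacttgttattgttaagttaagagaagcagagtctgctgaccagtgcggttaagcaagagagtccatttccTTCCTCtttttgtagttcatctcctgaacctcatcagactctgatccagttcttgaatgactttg
Fcgr4, chr1:171018676-171018975, plus strand: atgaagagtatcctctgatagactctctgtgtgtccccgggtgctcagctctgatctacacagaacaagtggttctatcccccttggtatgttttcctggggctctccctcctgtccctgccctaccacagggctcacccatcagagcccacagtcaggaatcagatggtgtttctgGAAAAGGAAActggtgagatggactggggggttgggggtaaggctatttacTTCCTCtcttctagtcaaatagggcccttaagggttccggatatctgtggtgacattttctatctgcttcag
Fcgr2b, chr1:170976022-170976321, minus strand: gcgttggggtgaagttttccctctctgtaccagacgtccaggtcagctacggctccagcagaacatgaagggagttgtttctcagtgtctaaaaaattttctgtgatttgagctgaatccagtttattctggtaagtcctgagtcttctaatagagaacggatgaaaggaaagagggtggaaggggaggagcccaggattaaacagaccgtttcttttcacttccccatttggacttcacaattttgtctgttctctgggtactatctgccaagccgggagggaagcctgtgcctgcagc

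In the first comparison, nephritic against young kidneys, all 3 activating receptors, the shared chain and the kinase were higher in nephritic kidneys, and the inhibitory receptor did not pass the test. Across all 17521 genes tested, 28.1% were called higher and 33.9% lower (edgeR quasi-likelihood test with the time point and set as covariates, Benjamini-Hochberg adjusted p of 0.05 or less), and the median log2 change of all genes was -0.03. Beside this, 5 of 6 members were called higher and none lower, and their median log2 change without Fcgr2b was 2.61.

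Fcgr4 showed the largest change of the 6. Its level was 0.499 to 1.73 CPM (median 0.820) in the 30 young kidneys and 3.58 to 88.8 CPM (median 13.4) in the 27 nephritic kidneys. The groups did not overlap: the lowest nephritic kidney was above the highest young one. This was so for 155 of the 17521 genes tested (0.885%), which included Fcgr1 and Fcgr4 but no other member. The log2 change of Fcgr4 was 4.31 ± 0.22 (SE), a 19.8-fold difference (95% interval 14.7 to 26.8, adjusted p = 7.37e-23), and 53 of the 17521 genes had a larger log2 change. The young values rest on 14 to 60 counts per library, the nephritic ones on 109 to 2830.

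Fcgr1, the high-affinity receptor, was at 0.763 to 1.84 CPM (median 1.23) in young and 2.23 to 35.3 CPM (median 11.5) in nephritic kidneys, again without overlap. Its log2 change was 3.15 ± 0.18 (8.90-fold, adjusted p = 2.53e-21). Fcgr3 was at 0.805 to 2.34 CPM (median 1.36) in young and 2.04 to 18.04 CPM (median 7.25) in nephritic kidneys. Here 26 of 27 nephritic kidneys lay above every young one, and 1 nephritic kidney, mouse 14 at ZT8, did not. The log2 change of Fcgr3 was 2.49 ± 0.13 (5.63-fold, adjusted p = 3.41e-22), the smallest of the 3 receptors.

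Fcer1g, the ITAM chain that the activating receptors share, was at 1.02 to 2.88 CPM (median 1.76) in young and 2.53 to 37.9 CPM (median 9.50) in nephritic kidneys, with 26 of 27 nephritic kidneys above every young one. Its log2 change was 2.61 ± 0.15 (6.11-fold, adjusted p = 2.03e-21). Syk, the kinase that docks on the phosphorylated ITAM, was at 2.57 to 6.20 CPM (median 3.51) in young and 5.39 to 114.7 CPM (median 19.9) in nephritic kidneys, with the same count of 26 of 27. Its log2 change was 2.55 ± 0.17 (5.85-fold, adjusted p = 7.97e-19). For both genes the exception was again nephritic mouse 14. The highest kidney for all 5 genes was nephritic mouse 4 (Set 1, ZT12).

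Fcgr2b, the inhibitory receptor, was at 19.1 to 43.7 CPM (median 30.9) in young and 21.5 to 36.8 CPM (median 30.0) in nephritic kidneys, so the nephritic range lay within the young one. Its log2 change was -0.07 ± 0.05 (0.953-fold), with a 95% interval from -0.17 to 0.03 on the log2 scale and an adjusted p of 0.231. The interval holds no change above 1.02-fold or below 0.889-fold. In the 2 sets taken alone the value was -0.25 (Set 1, adjusted p = 0.0692) and 0.01 (Set 2, adjusted p = 0.848), and neither passed. The other 5 members were called higher in each set alone, by 3.01 to 4.99 in Set 1 and by 2.40 to 4.15 in Set 2 on the log2 scale. Leaving out nephritic mouse 21 gave log2 changes of 2.51 to 4.33 for these 5 and -0.07 for Fcgr2b.

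**Figure D1:**
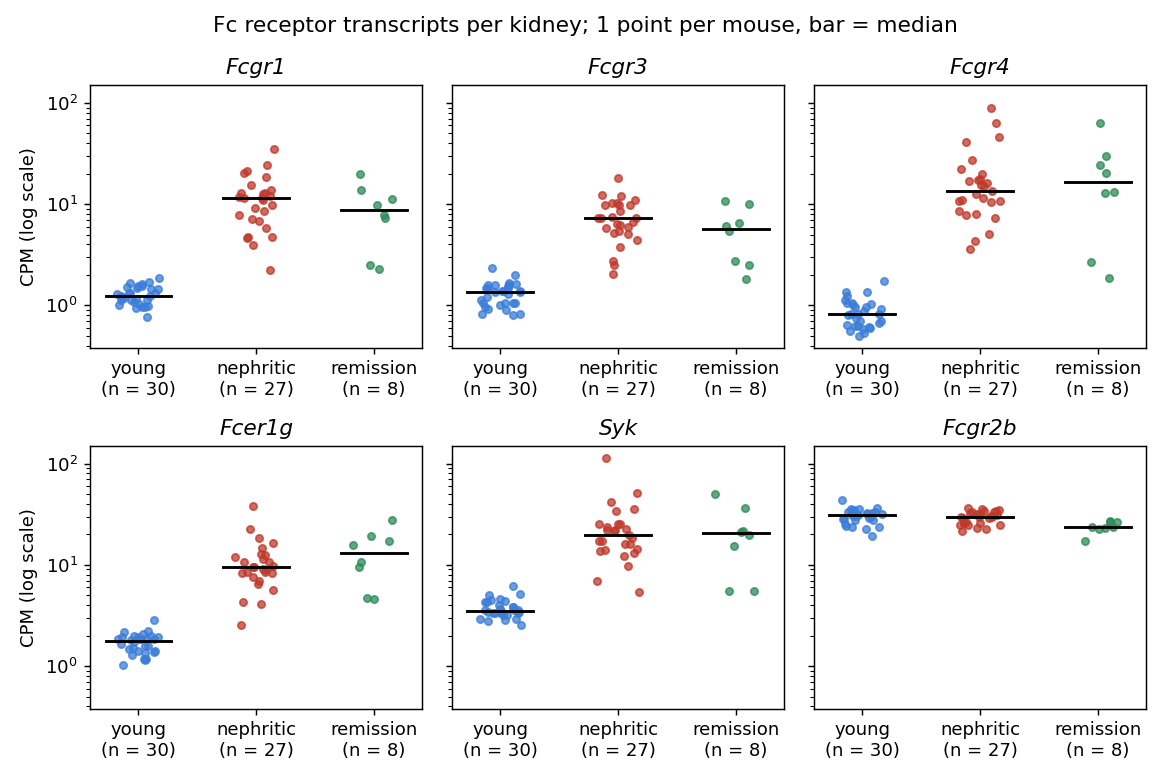
CPM of the 6 transcripts (log axis) in 30 young, 27 nephritic and 8 remission kidneys, with 1 point per mouse and a bar at the median. The 5 activating-side transcripts are higher in nephritic and most remission kidneys than in young ones, whereas Fcgr2b medians are 30.9, 30.0 and 23.8 CPM.

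The balance of activating to inhibitory transcripts was taken within each kidney as the log2 CPM of a gene minus the log2 CPM of Fcgr2b. These differences are relative to Fcgr2b in whole kidneys and say nothing of the ratio of proteins. Nor do they give the ratio within a cell type, since the transcripts compared may come from different cells. For Fcgr4 the difference was -5.91 to -4.16 (median -5.03) in young and -3.09 to 1.54 (median -1.19) in nephritic kidneys. For Fcgr3 it was -5.63 to -3.62 (median -4.47) in young and -3.88 to -0.75 (median -1.98) in nephritic kidneys, and the groups overlapped. They also overlapped for Fcer1g, Syk and Fcgr1, the last at -5.08 to -3.68 in young and -3.75 to 0.21 in nephritic kidneys. Tested with limma across 17520 genes set against Fcgr2b in the same way, 29.8% of genes were called higher relative to Fcgr2b in nephritic kidneys, and all 5 members were. The changes relative to Fcgr2b were 4.11 ± 0.18 for Fcgr4 (adjusted p = 1.24e-26), 3.01 ± 0.16 for Fcgr1, 2.56 ± 0.14 for Fcer1g, 2.51 ± 0.15 for Syk and 2.44 ± 0.13 for Fcgr3 on the log2 scale. Without nephritic mouse 21 the 5 changes were 2.45 to 4.12, all called. The order of the 3 receptors was Fcgr4, Fcgr1 and Fcgr3 in both scales. The log2 change of Fcgr2b itself was -0.07 in the same libraries. The relative values therefore largely restate the first comparison and are not separate evidence.

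**Figure D2:**
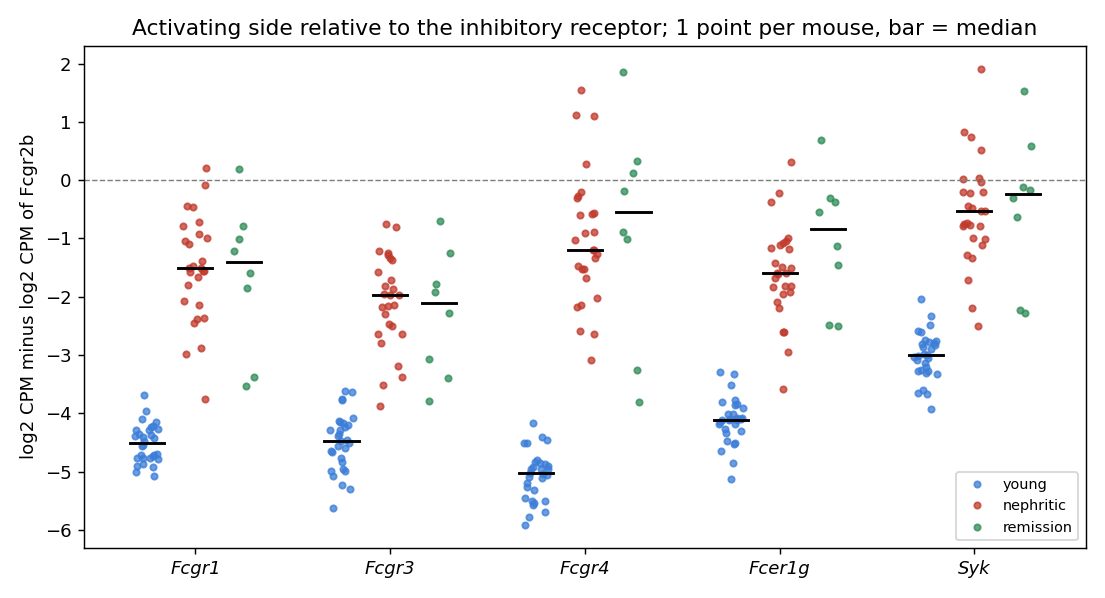
Log2 CPM minus log2 CPM of Fcgr2b in the same library (vertical axis, log2 units) for the 5 activating-side transcripts, with 1 point per mouse and a bar at the median. Young kidneys lie lowest for every gene, with medians of -5.03 (Fcgr4) to -3.01 (Syk), and the nephritic and remission points overlap over most of their range.

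The genes around these receptors were read from lists, of which 4 concern the pathway. Of 26 kinases and adaptors downstream of the activating receptors, 20 were higher in nephritic kidneys, 3 were lower and 3 did not pass, with a median log2 change of 2.05. Among the largest were Pik3r5 (3.24 ± 0.19), a regulatory subunit of PI3K gamma, and Rac2 (3.01 ± 0.18), a small GTPase of blood cells. Lyn, the Src family kinase that phosphorylates both ITAM and ITIM, changed by 0.98 ± 0.07, and the 3 lower genes (Tec, Vav2 and Vav3) by -0.37 to -0.07.

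Most listed genes of the inhibitory arm were also higher. Of 15 other inhibitory genes, 11 were higher, none lower and 4 did not pass, with a median log2 change of 0.80. The 4 that did not pass (Inppl1, Ptpn11, Dok2 and Cbl) were at -0.012 to 0.075, beside -0.07 for Fcgr2b. The largest were Pilra (3.80 ± 0.26) and Cd72 (3.03 ± 0.16), both ITIM-bearing receptors, and Cd22 (2.38 ± 0.19), the ITIM receptor of B cells. Inpp5d, the phosphatase that docks on Fcgr2b, rose by 1.45 ± 0.10 on the log2 scale (adjusted p = 7.7e-19), and Ptpn6 by 0.80 ± 0.09.

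The phagocyte oxidase, an effector of Fc receptor signalling, has 6 listed genes, and 5 of them were higher. The log2 changes included 2.24 for Cybb (the catalytic subunit), 2.28 for Ncf1, 3.07 for Ncf4 and 3.01 for Rac2, against -0.14 ± 0.06 for Cyba (adjusted p = 0.042, called lower). Of 13 other Fc receptors, 11 had enough counts to be tested, and 9 were higher, 1 lower (Fcamr, a receptor for IgA and IgM, -0.51 ± 0.13) and 1 not called. The 3 largest were the B cell genes Fcrl5 (7.55 ± 0.43), Fcrl1 (4.47 ± 0.33) and Fcer2a (4.03 ± 0.33). Fcgrt, the neonatal receptor that recycles IgG and does not signal through the ITAM chain, had a log2 change of -0.11 ± 0.06 (adjusted p = 0.119).

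Markers of macrophages and B cells were higher in nephritic kidneys, while those of neutrophils, mast cells and endothelium mostly did not pass or were lower. Of 12 macrophage and monocyte markers, 11 were higher in nephritic kidneys and 1 lower (Mertk, -0.36 ± 0.10), with a median log2 change of 2.58 and a range up to 4.46 for Itgam. Their summed level was 175 to 306 CPM in young, 339 to 1973 CPM in nephritic and 382 to 1152 CPM in remission kidneys, and no listed marker was at 0 throughout a group. All 6 B cell markers were higher (median 4.38), as were 5 of 6 dendritic cell markers (median 0.86). Of 8 neutrophil markers 5 could be tested and 1 was higher, Csf3r (2.61 ± 0.16). The defining marker Ly6g did not pass (0.39 ± 0.29) and was at 0 to 0.444 CPM in nephritic kidneys. The summed neutrophil markers had medians of 1.16 CPM in young and 5.93 CPM in nephritic kidneys. Of 4 endothelial markers, 2 were lower and none higher. Of the remaining lists, 4 of 5 plasma cell, 4 of 4 T cell, 3 of 3 NK cell and 1 of 4 mast cell and basophil markers were higher and none lower. As a check of the tissue, the summed level of 8 nephron markers was 11445 to 20044 CPM (median 14864) in young and 4670 to 16711 CPM (median 12329) in nephritic kidneys, and 3 of the 8 were lower and 2 higher in nephritic kidneys. The summed adrenal markers had medians of 5.92 CPM in young and 5.19 CPM in nephritic kidneys but reached 1006 and 597 CPM, with an upper quartile of 24.0 CPM in young kidneys, and 2 of 3 were called lower in nephritic kidneys. In whole tissue, more cells of a type and more RNA per cell cannot be told apart, and the part of these cell types in the receptor levels was not tested.

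The remission kidneys gave the second comparison, at ZT0 and ZT12 only. Against 13 nephritic kidneys at those times, no activating-side transcript passed the test in either direction, and Fcgr2b was called lower. Of 16344 genes tested, 14.6% were called higher and 16.5% lower in remission, against 0 and 1 of the 6 members.

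The remission mice spread widely. Fcgr4 was at 2.68, 12.8, 13.1 and 20.2 CPM at ZT0 and at 1.86, 24.4, 29.9 and 62.6 CPM at ZT12. Remission mice 1 (ZT0) and 2 (ZT12) had the lowest levels of all 5 activating-side genes, and for Fcgr4 they lay below every nephritic kidney and above every young one. The other 6 lay within the nephritic range for all 5 activating-side genes. Syk was at 5.56 CPM in mouse 1 and 5.49 CPM in mouse 2, inside the young range and near the lowest nephritic kidney, and at 15.2 to 50.2 CPM in the others. The summed macrophage markers were also lowest in these 2 mice, at 385 and 382 CPM against 584 to 1152 CPM in the other 6.

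The log2 changes from nephritic to remission were -0.19 ± 0.38 for Fcgr1 (95% interval -0.93 to 0.54, adjusted p = 0.731), -0.45 ± 0.30 for Fcgr3 (-1.03 to 0.13, adjusted p = 0.261), 0.45 ± 0.49 for Fcgr4 (-0.50 to 1.40, adjusted p = 0.507) and -0.05 ± 0.37 for Syk (-0.78 to 0.68, adjusted p = 0.934). These intervals are wide: as folds they run from 0.524 to 1.46 for Fcgr1 and from 0.706 to 2.65 for Fcgr4. Fcer1g was 0.59 ± 0.30 (0.01 to 1.17, adjusted p = 0.135). The repeat libraries read Fcer1g higher than the originals in 4 of 4 mice, with the original minus repeat at -0.54 to -0.07 on the log2 scale, and that range is the same for the 3 mice other than nephritic mouse 21. A further fit had the repeats added and the s numbering as a covariate, over all ZT0 and ZT12 libraries, young ones included. In it 4 mice enter as 2 libraries each and no term ties them. There the change of Fcer1g was -0.11 (adjusted p = 0.849), and without the repeat of mouse 21 it was -0.28 (adjusted p = 0.65). Without remission mice 1 and 2, which was tried after their values were seen, Fcer1g was at 0.87 (adjusted p = 0.00846), and without mouse 2 alone at 0.73 (adjusted p = 0.0335).

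Fcgr2b was at 17.3 to 27.02 CPM (median 23.8) in remission, and its log2 change against nephritic kidneys was -0.28 ± 0.10 (0.822-fold, adjusted p = 0.0403). This call sits at the threshold: leaving out 1 of 9 mice in turn raised the adjusted p to between 0.052 and 0.0815, mouse 8 among them (0.0636), and in the same fit with the repeats added it was -0.30 (adjusted p = 0.119), or -0.21 (adjusted p = 0.345) without the repeat of mouse 21. Relative to Fcgr2b, where 32.2% of 16343 genes were called higher in remission and the median gene was at 0.28, none of the 5 members was called in either direction. Their values were -0.26 to 0.72 on the log2 scale, with Fcer1g at 0.72 ± 0.33 (adjusted p = 0.0926). Without remission mouse 1 or 2, Fcer1g relative to Fcgr2b passed, at 0.88 (adjusted p = 0.0406) and 1.00 (adjusted p = 0.00682). Relative to Fcgr2b, the 5 values were -0.28 to 0.68 without remission mouse 8 and -0.30 to 0.68 without nephritic mouse 21, and none passed. Without remission mouse 8, the 5 activating-side changes against nephritic kidneys were -0.45 to 0.59 on the log2 scale and none passed. Without nephritic mouse 21 they were -0.51 to 0.54, none passed, and Fcgr2b stayed called (adjusted p = 0.0464).

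Against the 14 young kidneys at the same times, remission kidneys were higher for all 5 activating-side genes. Of 15982 genes, 26% were called higher and 25.6% lower. The log2 changes were 4.39 ± 0.55 for Fcgr4 (adjusted p = 1.38e-06), 2.97 ± 0.30 for Fcer1g (7.84-fold, adjusted p = 9.63e-08), 2.79 ± 0.35 for Fcgr1 (6.89-fold), 2.50 ± 0.35 for Syk (5.67-fold) and 2.22 ± 0.28 for Fcgr3 (4.65-fold). Every remission kidney was above every one of the 30 young kidneys for Fcgr1, Fcgr4 and Fcer1g, as for 340 genes (2.13%), but not for Fcgr3 (7 of 8) or Syk (6 of 8). Fcgr2b was at -0.22 ± 0.10 (adjusted p = 0.0534). Without remission mouse 8 the 5 changes were 2.22 to 4.38, all called, and Fcgr2b was at -0.24 (adjusted p = 0.0527). The Fcgr2b value lies at the threshold: it passed with no set covariate (-0.25, adjusted p = 0.0159), with the repeats in place of their originals (-0.23, adjusted p = 0.0494), and without young mouse 14 or 15 or remission mouse 2 or 3 (adjusted p = 0.0165, 0.0492, 0.0276 and 0.0415). Relative to Fcgr2b, the 5 genes were higher by 2.21 to 3.96 on the log2 scale and all were called, where 35.1% of 15981 genes were called higher and the median gene was at 0.21. Without remission mouse 8 they were 2.19 to 3.84, all called. With only the s-numbered libraries (8 remission and 2 young repeats) the changes were 2.39 to 4.27 on the log2 scale but no longer passed, at adjusted p of 0.0569 to 0.118. These comparisons share their remission mice, so their values stand side by side and not as separate evidence.

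Most genes of the pathway lists did not pass against nephritic kidneys. Of the 26 kinases and adaptors, none was higher than in nephritic kidneys and 2 were lower (Prkcd, a protein kinase C, -0.43 ± 0.06; Plcg1, a phospholipase C, -0.31 ± 0.08), and against young kidneys 23 were higher. Of the 15 inhibitory genes, 2 were lower than in nephritic kidneys (Sirpa, a receptor for CD47 on myeloid cells, -0.49 ± 0.15; Cblb, a ubiquitin ligase, -0.31 ± 0.10). Of the oxidase genes, Cyba was higher (0.39 ± 0.13, adjusted p = 0.0236) and the other 5 did not pass, among them Cybb, Ncf1, Ncf4 and Rac2 at -0.34, -0.23, -0.28 and 0.44. Of the other Fc receptors, Fcgrt was higher (0.46 ± 0.13, adjusted p = 0.0116) and the other 10 tested did not pass. Of 12 macrophage and monocyte markers, Ccr2 (-1.59 ± 0.36) and Mrc1 (-1.13 ± 0.31) were lower and 10 did not pass, with a median log2 change of -0.16. Of the endothelial markers, 3 of 4 were higher. In the other immune lists, 1 of 6 B cell markers and 1 of 5 plasma cell markers were higher and none lower. Lower were 1 of 6 dendritic cell markers and 1 of 2 tested NK cell markers, and none of these was higher. No tested T cell, neutrophil, or mast cell and basophil marker passed.

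**Figure D3:**
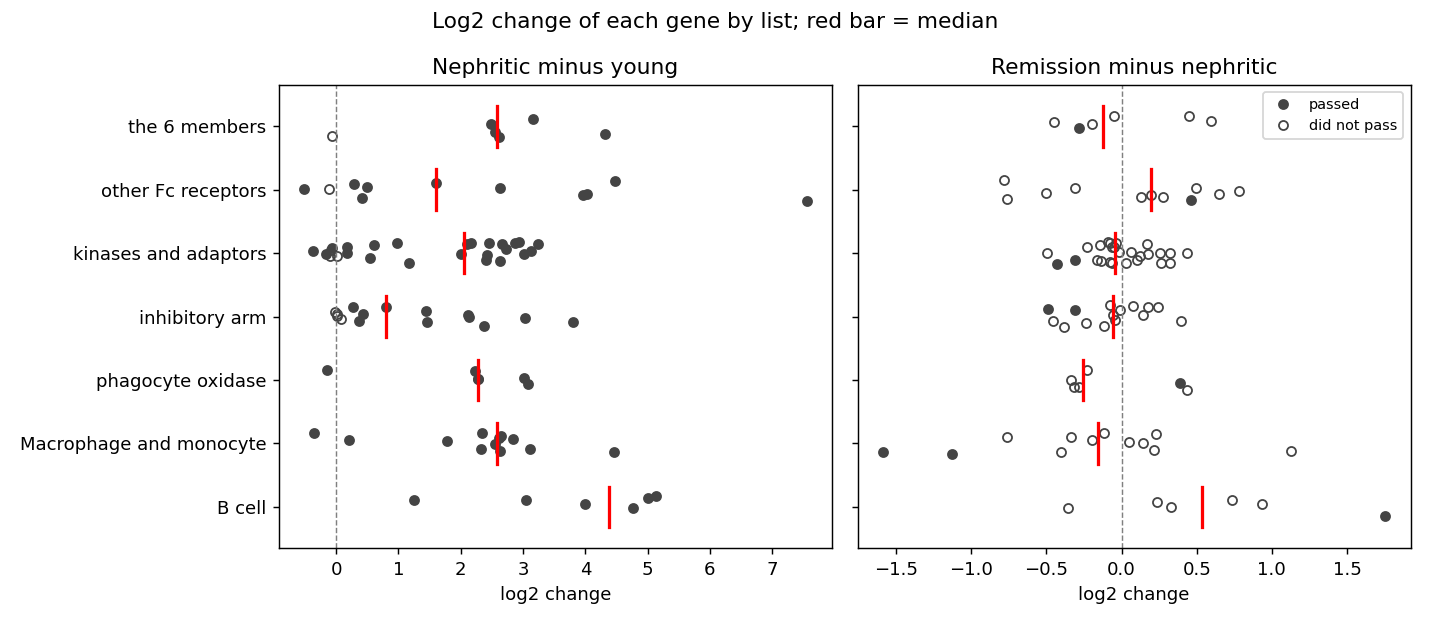
Log2 change (horizontal axis) of every tested gene in the 6 members, the 4 pathway lists and 2 marker lists, for nephritic minus young kidneys and remission minus nephritic kidneys. Filled points passed the edgeR test, open points did not, and red bars are medians. In the nephritic comparison the median of the 26 kinases and adaptors is 2.05 and that of the macrophage markers 2.58, and in the remission comparison the medians are -0.04 and -0.16.

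The third question was whether these transcripts vary over the day. In young kidneys, 39.8% of 16521 genes varied over the 6 time points, and so did 2 of the 6 members, Fcgr2b and Fcgr3. Fcgr2b was highest at ZT4 (33.6 to 36.5 CPM, 4 mice) and lowest at ZT12 (19.1 to 28.3 CPM, 7 mice). The peak to trough difference was 0.57 on the log2 scale (adjusted p = 0.000426), and the call held when any 1 mouse was left out. Fcgr3 was highest at ZT16 (1.01 to 2.34 CPM) and lowest at ZT4 (0.805 to 1.36 CPM), and these overlapped (adjusted p = 0.0345). Its call was lost, at adjusted p of 0.0506 to 0.0868, when any 1 of 6 mice at ZT4, ZT8 or ZT16 was left out, and in Set 2 alone (0.0755). Fcgr4 (adjusted p = 0.0722) did not pass, but it did in Set 2 alone (0.0393) and without young mouse 22 (0.0381) or 25 (0.0246). Fcgr1 (0.126), Fcer1g (0.445) and Syk (0.664) did not pass. The summed macrophage markers in young kidneys had medians of 211 CPM at ZT4 and 263 CPM at ZT12.

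In nephritic kidneys, 21.6% of 16872 genes varied over the day, and 2 members passed, Syk (adjusted p = 0.0208) and Fcgr4 (adjusted p = 0.0425). For both, the highest median was at ZT16 and the lowest at ZT8. Syk was at 22.3, 33.7 and 51.5 CPM in the 3 mice at ZT16 and at 5.39, 6.93, 13.1 and 22.7 CPM in the 4 mice at ZT8. Fcgr4 was at 17.1, 40.7 and 62.9 CPM at ZT16 and at 3.58, 4.34, 5.04 and 27.4 CPM at ZT8. In both cases nephritic mouse 16 was the highest of the 4 at ZT8 and lay inside the ZT16 range. Fcer1g (0.0965), Fcgr3 (0.298), Fcgr2b (0.414) and Fcgr1 (0.523) did not pass. Syk kept its call when any 1 mouse was left out, with adjusted p up to 0.0499, whereas Fcgr4 lost it without any 1 of 19 of the 27 mice, mouse 21 among them, at up to 0.227 without mouse 24 (ZT16). With a 24-hour cosine in place of separate time points, neither passed (Syk 0.0787, Fcgr4 0.112).

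Leaving out nephritic mouse 16 changed 3 further calls. Without it, Fcer1g (adjusted p = 0.00318), Fcgr3 (0.00528) and Fcgr1 (0.0257) varied over the day as well, so that 5 members passed in place of 2. With the mouse kept, Fcer1g also passed under DESeq2 (adjusted p = 0.0345) and under limma on log2 CPM (0.0449). Its summed macrophage markers were 1273 CPM, against a median of 413 CPM over the 4 ZT8 mice, and the nephritic medians of that sum were 717, 748, 413, 887, 805 and 652 CPM from ZT0 to ZT20. The macrophage markers thus had their lowest median at the time point at which the 5 activating-side genes had theirs, and their part in the course over the day was not tested. Each time point holds different mice, so a course over the day compares animals and not 1 animal with itself.

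**Figure D4:**
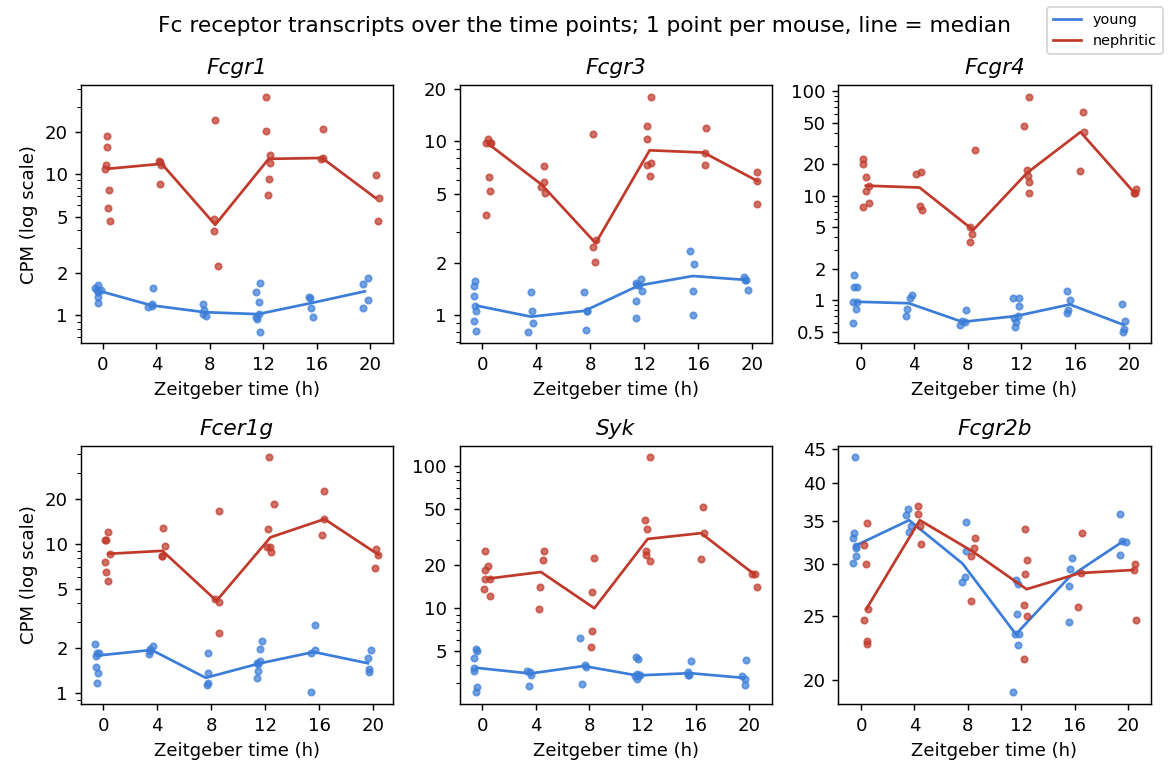
CPM (log axis, scaled per panel) against Zeitgeber time in hours for the 6 transcripts in young and nephritic kidneys, with 1 point per mouse and lines through the medians. The 5 activating-side medians dip at ZT8 in nephritic kidneys, where 1 of 4 mice stays high, and Fcgr2b in young kidneys falls to a median of 23.5 CPM at ZT12.

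Whether the course differs between nephritic and young kidneys was tested through the interaction of group and time point, which was called for 6.27% of 17521 genes. Among the members only Syk passed (adjusted p = 0.024). The nephritic minus young difference of Syk was 1.496 ± 0.37 on the log2 scale at ZT8 (2.82-fold) and 3.52 ± 0.30 at ZT12 (11.4-fold), and elsewhere it ran from 2.14 at ZT0 to 3.28 at ZT16. Syk kept this call without mouse 21 (adjusted p = 0.0284) and without any other 1 mouse (up to 0.0488), but not in Set 2 alone (0.0951) or with cosine terms (0.134). Fcgr4 differed by 3.63 ± 0.40 at ZT0 (12.3-fold) and by 5.40 ± 0.57 at ZT16 (42.2-fold), and its course did not pass (0.131). Fcgr2b ran from -0.30 ± 0.09 at ZT0 to 0.17 ± 0.10 at ZT12 and did not pass either (0.122), nor did Fcgr1 (0.304), Fcer1g (0.33) or Fcgr3 (0.386). Without nephritic mouse 16, Fcgr1, Fcgr3, Fcgr4 and Fcer1g passed as well, at adjusted p of 0.0169 to 0.0301. Passing in 1 group and not in the other was thus shown as a difference between groups for Syk alone.

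Finally, the genes most like each member were sought by the correlation of log2 CPM over the 65 original libraries, after the mean of each diagnosis and time point was removed, among 17587 genes. This is a description, since the libraries share tissue, sets and depth. Fcgr1 was most like Tyrobp (Pearson r = 0.917, Spearman rho = 0.830), another ITAM adaptor, then Cyth4 (0.917) and C1qb (0.915), a complement subunit made by macrophages. Fcgr3 was most like Ctss (0.878), C1qc (0.867) and Spi1 (0.864), which encodes PU.1. Fcgr4 was most like Pld4 (0.904), Clec4a1 (0.900) and Clec12a (0.890), Fcer1g like Pld4 (0.916), C1qb (0.912) and Cyth4 (0.910), and Syk like Myo1g (0.913), Itgb2 (0.909) and Lcp2 (0.909), the adaptor SLP-76. The nearest genes to Fcgr2b were Ttc9c, Zkscan3 and Ranbp6, at 0.597, 0.574 and 0.570.

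Among the members themselves, the 10 pairs of activating-side genes had r of 0.720 to 0.856 over the 65 libraries, with Fcgr4 and Fcer1g the closest pair. The 5 pairs with Fcgr2b had r of -0.196 to -0.165. Within the 27 nephritic kidneys alone, Fcgr1 and Fcgr3 reached 0.945 and Fcgr4 and Fcer1g 0.914, Fcgr3 and Syk were the loosest of the activating pairs at 0.631, and the pairs with Fcgr2b ran from -0.07 to 0.11. On chromosome 1, Fcgr2b lies 42.4 kb from Fcgr4 and their r was -0.165, while Fcgr4 lies 21.4 kb from Fcgr3 and their r was 0.724.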

How the data were processed

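The authors sequenced oligo-dT selected RNA of perfused whole kidneys, kept uniquely aligned reads with at most 2 mismatches, and deposited raw counts per gene symbol, 1 table per library. The study's methods name a Burrows-Wheeler aligner, and the submitters' processing notes name HISAT and mm10, and versions are not given in the sources used here. The deposited counts hold 24538 symbols, of which 15 had empty cells and were dropped. The 65 original libraries were analysed, and the 4 repeat libraries served for checks only. Groups and time points follow the labels, and sets follow the study's sample table.

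Genes with at least 100 counts over the libraries of a fit were scaled by TMM and tested with edgeR 4.0.16 quasi-likelihood F tests (R 4.3.3), with time point and set as covariates. Genes relative to Fcgr2b were tested with limma 3.58.1 (trend) on log2 CPM (prior count 2) minus that of Fcgr2b. P-values were adjusted by Benjamini-Hochberg over all genes, at a threshold of 0.05. The SE of an edgeR change was taken as its size over the square root of F, so its 95% interval is approximate. P-values measure the spread between libraries, 1 per mouse except where repeats were added. Within the young, nephritic and remission groups, no pair of original libraries agreed within sampling noise. The scripts were tested on simulated data.

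All 6 members are named. From each pathway list the counts are given with the 3 genes of largest change past the threshold, and every gene of lists of 6 or fewer; other genes were named after their values were seen, and some genes the rule names are not reported here. The 3 genes most correlated with each member are given. The members and lists were chosen with earlier results of these data known. Alternatives were DESeq2 1.42.0, other scaling, filters, prior counts and covariates, each set alone, cosine terms of 24 h, the s-numbered libraries, the s numbering as a covariate with the repeats added, and leaving out each mouse.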

Additional observations from a re-analysis of the deposited data

Results flagged for a closer look

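Over the 6 genes, 78 sets of values from 4 to 7 mice at 1 time point, or from all 8 remission mice, were examined, and 5 had 1 mouse far from the others for 1 of the 6 genes, and chance alone gives about 1 in 20. Nephritic mouse 16 at ZT8 accounts for 2 of them, with Fcgr3 at 11.1 CPM against 2.04 to 2.72 CPM in the other 3 mice and Fcgr4 at 27.4 CPM against 3.58 to 5.04 CPM. Young mouse 7 at ZT4 had Fcgr1 at 1.56 CPM against 1.14 to 1.19 CPM in 3 others. Fcgr2b was at 43.7 CPM in young mouse 4 at ZT0, against 30.2 to 33.5 CPM in 6 others. It was at 17.3 CPM in remission mouse 4, against 22.4 to 27.02 CPM in the other 7, and this mouse had the highest levels of the 5 activating-side genes among the remission mice.

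The course of Syk over the day differed between nephritic and young kidneys by the group by time terms of edgeR (adjusted p = 0.024).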

How the results depend on the processing

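For single members, settings other than leaving out a mouse gave 355 values with the same direction and side of the threshold, 19 of the opposite sign, 15 that no longer passed and 8 that newly passed. All counts of called members in nephritic against young kidneys stayed at 5, with and without reference to Fcgr2b. Members varying over the day in nephritic kidneys (2) came to 3 with DESeq2, 3 with limma, 1 with no set covariate and 0 with cosine terms, and those with a differing course (1) to 0 in Set 2 alone and 0 with cosine terms. Remission against nephritic kidneys (1) gave 0 with no set covariate, 0 with the run covariate (the s numbering, with the repeats added), 0 with it lacking the repeat of nephritic mouse 21, 2 without remission mice 1 and 2, and 0 with s-numbered libraries lacking that repeat, the last 3 settings being chosen after seeing the data. Remission against young kidneys (5) gave 6 with no set covariate, 6 with repeats in place of originals and 0 with s-numbered libraries only, where 2 young libraries remain, and relative to Fcgr2b, remission against nephritic kidneys (0) gave 1 with an edgeR offset. Leaving out 1 mouse gave 1 to 3 members varying in young kidneys, 1 to 5 in nephritic kidneys, 1 to 5 with a differing course, 5 to 6 in remission against young kidneys, 0 to 2 in remission against nephritic kidneys and 0 to 1 of these relative to Fcgr2b.

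Log2 changes of the opposite sign all belong to results that did not pass in the reported fit: Fcgr2b at 0.013 in nephritic against young kidneys in Set 2 alone, and, in remission against nephritic kidneys, Fcgr4 at -0.12 with no set covariate, Syk at 0.13 with repeats in place of originals, Fcer1g at -0.11 and Syk at 0.080 with the run covariate, Fcer1g at -0.28 with it lacking the repeat of mouse 21, Fcer1g at -0.11 and Syk at 0.57 with s-numbered libraries only, Fcgr4 at -0.084 and Fcer1g at -0.61 without the repeat of mouse 21 as well, and Fcgr1 at 0.12 and Syk at 0.26 without remission mice 1 and 2. Relative to Fcgr2b, Fcgr1 was at 0.15 with the edgeR offset, Syk at -0.00076 with a prior count of 0.5, Fcgr4 at -0.21 and Syk at -0.31 with no set covariate, and Fcgr4 at -0.20, Fcer1g at -0.18 and Syk at -0.19 with the run covariate lacking that repeat. Leaving out 1 mouse moved Fcgr1 from -0.37 to 0.070 and Syk from -0.21 to 0.11, and relative to Fcgr2b Fcgr1 from -0.25 to 0.32, Fcgr4 from -0.050 to 0.81 and Syk from -0.22 to 0.35. The cause was not tested. The remission libraries, at 13311278 to 21849912 counts, and the 14 to 80 counts of the activating receptors and Fcer1g in young libraries limit the precision of these levels.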
